A study of Mus musculus with 594 samples.

Results

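The Zfp genes are mouse genes named only as a zinc finger protein with a number, and most encode proteins that carry Cys2His2 zinc fingers, small zinc-held folds that read DNA or RNA. The members were all genes whose symbol was Zfp followed by digits in the array's annotation, measured by probe sets with 1 gene symbol and taken at the probe set with the highest mean. That rule gave 150 genes of the 11807 genes with such a probe set, and 46 of the 150 had more than 1 probe set. No measured change entered this rule, which was itself chosen with earlier results of these data known. They share a naming series, and by that rule neither a pathway nor a regulator.

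Many mouse Zfp proteins join a string of zinc fingers to a KRAB domain, which binds the scaffold protein Trim28. Trim28 brings in the histone methyltransferase Setdb1, heterochromatin proteins and a deacetylase complex that holds Hdac1 and Hdac2, and the target, often a transposable element or an imprinted region, is silenced. Such genes lie in dense clusters of near copies on the mouse chromosomes. Others, such as Zfp148 and Zfp281, have no KRAB domain and bind GC-rich promoters.

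The study treated 2 mouse cell lines, the pancreatic alpha cell line αTC1 and the beta cell line βTC3, with 29 compounds that act on chromatin enzymes, and measured RNA at 1, 6 and 24 h on 594 Affymetrix arrays (299 of αTC1 and 295 of βTC3). The compounds were 8 hydroxamic acids (trichostatin A at 0.22 µM, SAHA at 1.3 µM, LBH-589 at 0.015 µM, PXD101 at 2.4 µM, ITF-2357 at 10 µM, CRA-024781 at 1.5 µM, pyroxamide at 10 µM and scriptaid at 2 µM) and 3 ortho-amino anilides (MS-275 at 2.9 µM, CI-994 at 10 µM and MGCD-0103 at 1.1 µM). The others were 2 cyclic tetrapeptides (apicidin at 1.4 µM and HC-toxin at 0.12 µM), BIX-01294 (10 µM), chaetocin (1.7 µM), AMI-1 (10 µM), 5-azadeoxycytidine, zebuarine (the label's spelling) and RG-0108 (each at 10 µM) and 10 compounds under code names that begin with BRD (0.91 to 10 µM). Each line and time also had cells given DMSO, the solvent of every compound. Hydroxamic acids, anilides and cyclic tetrapeptides inhibit histone deacetylases, BIX-01294 and chaetocin are inhibitors of histone lysine methyltransferases, AMI-1 of arginine methyltransferases, and 5-azadeoxycytidine and zebuarine of DNA methyltransferases. Each compound was used at 1 dose, so differences between compounds are also differences between doses unless the doses match. A compound had 3 arrays at each line and time, except 5 groups of 2 and 1 group of 4 in αTC1 at 24 h. DMSO had 14 arrays at each time in αTC1 and 12, 10 and 12 at 1, 6 and 24 h in βTC3. Both lines are single tumour-derived lines, and nothing in the labels says that replicates came from separate cultures, so p-values measure the spread between these arrays, which may be technical.

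All levels below are log2 of the deposited RMA intensity, and all changes are differences on that log2 scale, with their standard error (SE). A gene was called where limma's adjusted p, with Benjamini-Hochberg adjustment over the 11807 genes of a comparison, was under 0.05, and "rose" and "fell" are used only of such genes. Where a group had more than 5 arrays, 3 levels are given, the lowest, the median and the highest, and otherwise the level on each array. The members were dim: their median level was 4.60, against 5.01 for all genes, and 87 of the 150 (58%) lay below the median gene. Levels of different probe sets cannot be set against each other as amounts of RNA, so this says only how bright the probe sets were. The brightest were Zfp622 (10.0), Zfp706 (9.46), Zfp207 (8.59) and Zfp148 (8.46), and the dimmest was Zfp42 (2.66), known as Rex1, a marker of pluripotent stem cells.

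In DMSO at 24 h, Gcg, the glucagon gene, averaged 12.3 in αTC1 and 8.79 in βTC3, and the alpha cell factors Irx2 and Pou3f4 8.79 and 6.52 in αTC1 against 5.05 and 2.88 in βTC3. Ttr, also on the alpha cell list, went the other way (11.4 in αTC1 and 12.9 in βTC3), and Slc38a5 was at 3.16 and 3.24, so that 4 of 6 measured alpha cell markers were called higher in αTC1 and 1 lower. Ins2 averaged 4.31 in αTC1 and 13.2 in βTC3, and Pcsk1, which processes proinsulin, 3.08 and 9.95. The mature beta cell markers Slc2a2 and Ucn3 were near background in either line (2.92 and 3.03 in αTC1, 2.98 and 2.96 in βTC3), Sst, the delta cell hormone gene, was at 4.0 in αTC1 and 12.7 in βTC3, and non-endocrine markers lay between 2.81 and 3.86. Of the 299 αTC1 arrays, 8 had Ins2 at 7 or above, against a median of 4.12. The array that stood farthest from its own group was replicate 1 of apicidin in αTC1 at 24 h, with 53 genes more than 3 log2 units from the group, against at most 2 on any other array. On it Zfp148 was 4.07, against 8.49 and 8.49 on the other apicidin arrays, and Zfp281 was 2.96, against 7.08 and 7.16. Its Ins2 was 9.07, against 6.09 and 3.27, and its Gcg 12.6, against 12.8 and 12.8. The apicidin counts and named values in αTC1 at 24 h, and the totals over compounds there, are given with and without it. Other αTC1 24 h results include it in the spread that the groups share.

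The promoters of 6 members whose values carry the results are printed here so that the genes can be read beside their responses. Zfp277, Zfp566 and Zfp346 were among the members called higher most often, Zfp428 and Zfp282 among those called lower most often, and Zfp959 had the largest rise with chaetocin at 24 h in each line. Each is the 250 bases before an annotated transcript start, 5′ to 3′ on the gene's strand, from RefSeq on GRCm38.p6. For Zfp428, Zfp282 and Zfp959 the gene's annotated span begins before the window, at 24504548, 47877209 and 55891084. The Zfp346 window runs past the start of that gene's span (55105271). Capitals mark matches, on either strand, to the GC box GGGCGG, the CCAAT box CCAAT and the ETS-type motif CCGGAAG.
Zfp277 (chr12:40445791-40446040, minus strand): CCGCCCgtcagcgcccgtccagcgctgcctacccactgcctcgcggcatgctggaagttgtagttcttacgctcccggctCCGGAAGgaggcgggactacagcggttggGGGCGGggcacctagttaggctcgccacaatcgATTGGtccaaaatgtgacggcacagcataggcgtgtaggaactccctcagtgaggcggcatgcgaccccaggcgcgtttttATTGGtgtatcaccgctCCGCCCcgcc
Zfp566 (chr7:30090511-30090760, minus strand): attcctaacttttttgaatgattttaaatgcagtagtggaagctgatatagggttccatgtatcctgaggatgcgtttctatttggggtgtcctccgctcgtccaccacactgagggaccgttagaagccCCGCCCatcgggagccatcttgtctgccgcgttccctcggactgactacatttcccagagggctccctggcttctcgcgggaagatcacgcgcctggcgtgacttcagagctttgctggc
Zfp346 (chr13:55105072-55105321, plus strand): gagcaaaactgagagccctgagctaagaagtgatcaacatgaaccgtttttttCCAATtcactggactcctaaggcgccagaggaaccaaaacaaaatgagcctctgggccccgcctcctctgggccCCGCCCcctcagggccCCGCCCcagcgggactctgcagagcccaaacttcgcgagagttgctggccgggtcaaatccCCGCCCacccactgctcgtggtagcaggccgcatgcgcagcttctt
Zfp428 (chr7:24506837-24507086, plus strand): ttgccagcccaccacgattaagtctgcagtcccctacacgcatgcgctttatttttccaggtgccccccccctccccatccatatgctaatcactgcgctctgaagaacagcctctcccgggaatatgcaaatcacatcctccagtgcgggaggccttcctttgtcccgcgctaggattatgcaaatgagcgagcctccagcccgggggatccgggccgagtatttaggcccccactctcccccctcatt
Zfp282 (chr6:47877305-47877554, plus strand): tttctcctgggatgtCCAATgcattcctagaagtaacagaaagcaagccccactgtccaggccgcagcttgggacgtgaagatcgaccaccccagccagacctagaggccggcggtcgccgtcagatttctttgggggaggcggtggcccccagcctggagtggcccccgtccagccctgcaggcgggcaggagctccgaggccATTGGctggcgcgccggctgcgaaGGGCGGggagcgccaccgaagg
Zfp959 (chr17:55891843-55892092, plus strand): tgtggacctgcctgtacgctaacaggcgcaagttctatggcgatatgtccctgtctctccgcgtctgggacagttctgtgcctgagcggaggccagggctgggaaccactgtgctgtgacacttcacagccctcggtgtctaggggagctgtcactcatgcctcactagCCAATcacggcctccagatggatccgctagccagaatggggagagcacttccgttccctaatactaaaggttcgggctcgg
The Zfp277 window held 3 GC boxes, 2 CCAAT boxes, 1 ETS-type match and 24 CpG, the Zfp346 window 3 GC boxes and 1 CCAAT box, and the Zfp428 window none of the 3 motifs. No run of capitals holds more than 1 match.

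RefSeq gave a promoter sequence for 122 of the 150 members and for 9425 of all measured genes. Motifs and CpG were counted in the 250 bases before the start, called the window here. GC boxes stood in 46.7% of the members' windows, against 52.5% of all genes' windows, and CCAAT boxes in 46.7%, against 36.1%. The ETS-type motif was in 17.2%, against 11.4% and the TATA motif TATAAA in 5.74%, against 9.56%, all counted on both strands. The median number of CpG was 12 in the members' windows and 13 over all genes. Of the members called higher at least 30 times, 9 had a window and 66.7% of these held a GC box. Of those called lower at least 30 times, 18 had a window and 44.4% held one. These are descriptions of letters, with no test.

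Across the 29 compounds, Zfp genes were called lower more often than higher in αTC1 at 6 and 24 h and in βTC3 at 6 h, while all genes split about evenly. At 6 h, αTC1 gave 398 calls higher and 516 lower over 4350 member-compound pairs (9.15% and 11.9%, against 11.2% and 9.58% of all genes' pairs). At 24 h αTC1 gave 346 and 489 (7.95% and 11.2%, against 10.6% and 10.7%). βTC3 gave 353 higher and 575 lower at 6 h (8.11% and 13.2%, against 11.3% and 10.7%) and 306 and 295 at 24 h (7.03% and 6.78%, against 9.49% and 8.73%). Lower calls were thus 56.5%, 58.6%, 62.0% and 49.1% of the members' calls in that order, against 46.1%, 50.2%, 48.6% and 47.9% of all genes' calls. At 1 h there were 3 higher and 1 lower in αTC1 (0.0216% and 0.0111% of all genes' pairs) and 1 higher and 3 lower in βTC3 (0.0710% and 0.0234%).

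These totals count each member once per compound, and all compounds of a line and time share their DMSO arrays. With each array centred on its median, the αTC1 totals were 342 higher and 602 lower at 6 h and 323 and 535 at 24 h, and the βTC3 totals 359 and 561 at 6 h and 278 and 333 at 24 h. Centring moves all genes of an array alike. Lower calls were then 63.8%, 62.4%, 61.0% and 54.5% of the members' calls in the same order. Of all genes' calls they were 52.8%, 53.6%, 47.3% and 52.0%. In βTC3 at 24 h the split thus turned for the members and for all genes. For the members it also turned with quantile normalization (287 higher and 335 lower), where 49.0% of all genes' calls were lower. Without replicate 2 or 3 it turned too, where 47.7% and 48.4% of all genes' calls were lower. Since the members were dim, the totals were also taken over the 63 members and 5904 genes at or above the median level. Lower calls were then 62.2%, 65.5%, 61.1% and 54.7% of the members' calls in the same order, against 48.8%, 55.6%, 51.2% and 51.5% of those genes' calls. Fewer cells and less RNA per cell cannot be told apart in such cultures.

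**Figure D1:**
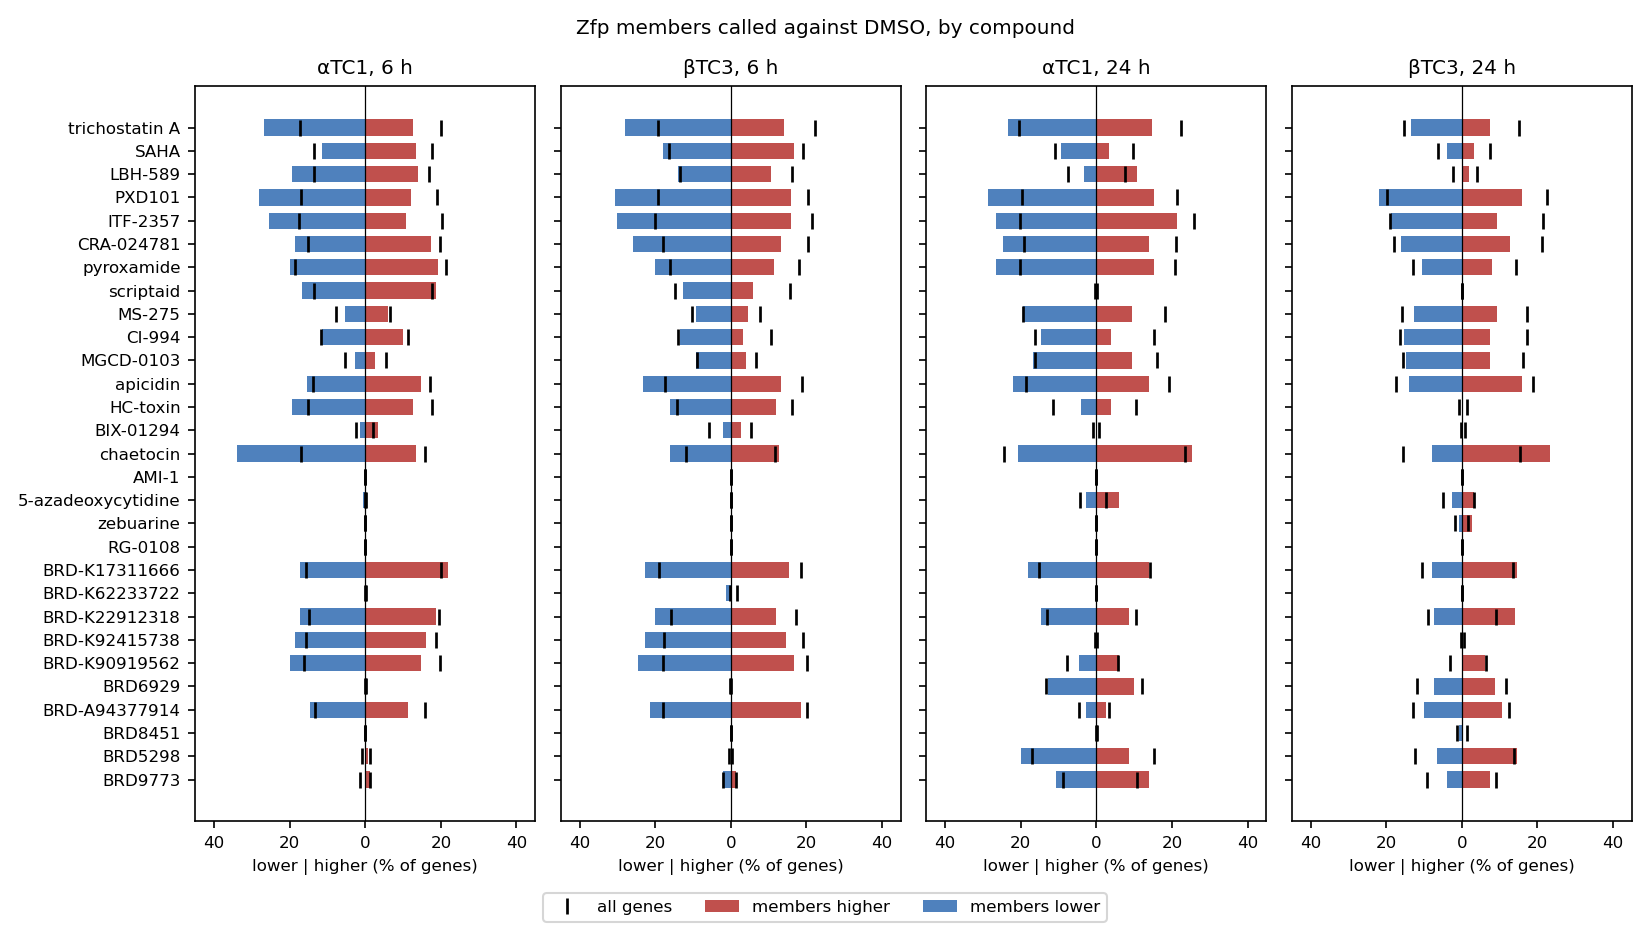
Percent of the 150 Zfp genes called higher (bars rightward) and lower (bars leftward) for each of the 29 compounds against DMSO. Panels are αTC1 and βTC3 at 6 and 24 h, with ticks at the percent of all 11807 genes called. The leftward bars of the hydroxamic acids pass their ticks in most cases at 6 h (trichostatin A: 40 of 150 lower in αTC1 and 42 in βTC3). The rightward bars mostly stop short of theirs.

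Single compounds with large responses, taken as at least 1000 genes called, were also set against all genes. Of 20 such compounds in βTC3 at 6 h, 19 had more members lower than higher, and the share of members lower exceeded the share of all genes lower in 16. In αTC1 at 6 h the count was 13 of 19, with the lower share above that of all genes in 15. In αTC1 at 24 h it was 14 of 19 and the lower share was above in 11. In βTC3 at 24 h it was 9 of 18, and the lower share was above in only 1. The share of members higher lay below that of all genes more regularly. At 6 h it did so in 19 of 20 compounds in βTC3 and 17 of 19 in αTC1. At 24 h it did so in 15 of 19 in αTC1 and 14 of 18 in βTC3.

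Trichostatin A, a microbial product, gave 19 members higher and 40 lower in αTC1 at 6 h (20.2% and 17.4% of all genes) and 21 and 42 in βTC3 at 6 h (22.4% and 19.4%). PXD101 gave 18 and 42 in αTC1 at 6 h (19.1% and 17.1%) and 24 and 46 in βTC3 at 6 h (20.5% and 19.4%). SAHA gave 20 and 17 in αTC1 at 6 h (17.6% and 13.5%) and 25 and 27 in βTC3 at 6 h (19.1% and 16.4%). SAHA in αTC1 was thus the exception among these, with slightly more members higher than lower.

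By 24 h some hydroxamic acids had lost their calls and others had not. Scriptaid gave 28 higher and 25 lower in αTC1 at 6 h (17.7% and 13.7%) and none called by limma at 24 h (0.195% and 0.229%), where 4 members had an unadjusted p under 0.05. LBH-589 gave 16 and 21 in βTC3 at 6 h (16.3% and 13.4%) and 3 and 0 at 24 h (3.92% and 2.39%). ITF-2357, in contrast, gave 32 and 40 in αTC1 at 24 h (25.9% and 20.3%). The 3 anilides went the other way in time: MS-275 gave 9 and 8 in αTC1 at 6 h (6.61% and 7.72%) and 14 and 29 at 24 h (18.2% and 19.5%).

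Among the code-named compounds, BRD-K17311666 gave 33 higher and 26 lower in αTC1 at 6 h (19.9% and 15.7%), and BRD-K90919562 22 and 30 (19.7% and 16.2%). BRD6929 had its calls at 24 h: in αTC1 it gave none at 6 h (0.0678% and 0.0339%, with 13 members at an unadjusted p under 0.05) and 15 and 19 at 24 h (12.1% and 13.3%). AMI-1 and RG-0108 gave no member by limma at any time in either line, where 3 to 11 members with AMI-1 and 2 to 16 with RG-0108 had an unadjusted p under 0.05. Over all genes AMI-1 gave 0% at every time and line, and RG-0108 0.0423% in αTC1 at 6 h and 0% elsewhere. BRD8451 gave 1 member in all, lower in βTC3 at 24 h (1.30% of all genes).

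As classes, with equal weight for each compound, the 8 hydroxamic acids lowered more members than they raised in each line at 6 and 24 h. The αTC1 arrays gave 35 members higher and 53 lower of 150 at 6 h (26.6% and 24.3% of all genes) and 33 and 45 at 24 h (26.1% and 24.3%). In βTC3 they gave 34 and 53 at 6 h (26.2% and 24.0%) and 21 and 30 at 24 h (22.5% and 20.7%). Set against those shares, 35.3% of the members fell at 6 h in each line, and 23.3% and 22.7% rose. At 24 h 30% of the members fell and 22% rose in αTC1. In βTC3 at 24 h 20% fell, near the share of all genes, and 14% rose, below it. The median change over all 150 in αTC1 at 6 h was -0.05, against -0.01 over all genes. With quantile normalization the βTC3 24 h split was 16 higher and 36 lower (21.9% and 22.0% of all genes). Of 7 markers of non-endocrine cells, 4 rose with hydroxamic acids in αTC1 at 24 h and 2 at 6 h, and 1 rose at either time in βTC3. Their mean level on the αTC1 24 h arrays was 3.13, 3.45 and 3.63 as the lowest, median and highest, against 3.07, 3.19 and 3.40 in DMSO, and its part in the members' changes was not tested.

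The 3 ortho-amino anilides acted on fewer members at 6 h and on more at 24 h. In αTC1 they gave 21 higher and 24 lower at 6 h (12.7% and 13.9% of all genes) and 17 and 39 at 24 h (21.2% and 22.5%). In βTC3 they gave 14 and 23 at 6 h (12.9% and 16.5%) and 20 and 28 at 24 h (22.0% and 21.7%). The αTC1 24 h median was -0.09, against -0.01 over all genes. Centring each array moved the αTC1 24 h split to 14 and 55 (18.5% and 27.6% of all genes) and the βTC3 24 h split to 15 and 39 (18.8% and 27.6%). Quantile normalization moved them to 15 and 49 (20.7% and 24.3%) and to 14 and 37 (21.1% and 24.0%).

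Over the tests of each of the 29 compounds against DMSO, in 2 lines at 3 times, 145 of the 150 members were called at least once, 24 of them only higher, 20 only lower and 101 in both directions. The 5 members never called (Zfp42, Zfp105, Zfp286, Zfp319 and Zfp936) all had mean levels under 3, among the dimmest measured. Never-called genes made up 3.33% of the members and 7.19% of all genes. Of all 11807 genes 2613 were called only higher, 1841 only lower and 6504 in both directions. The members called higher most often were Zfp277 (65 times), Zfp239 (58), Zfp346 (54), Zfp772 (53), Zfp566 (51), Zfp52 (50), Zfp40 (49) and Zfp612 (47). Those called lower most often were Zfp282 (68), Zfp428 (65), Zfp61 (64), Zfp362 (63), Zfp746 (63), Zfp644 (60), Zfp524 (59) and Zfp207 (57).

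**Figure D2:**
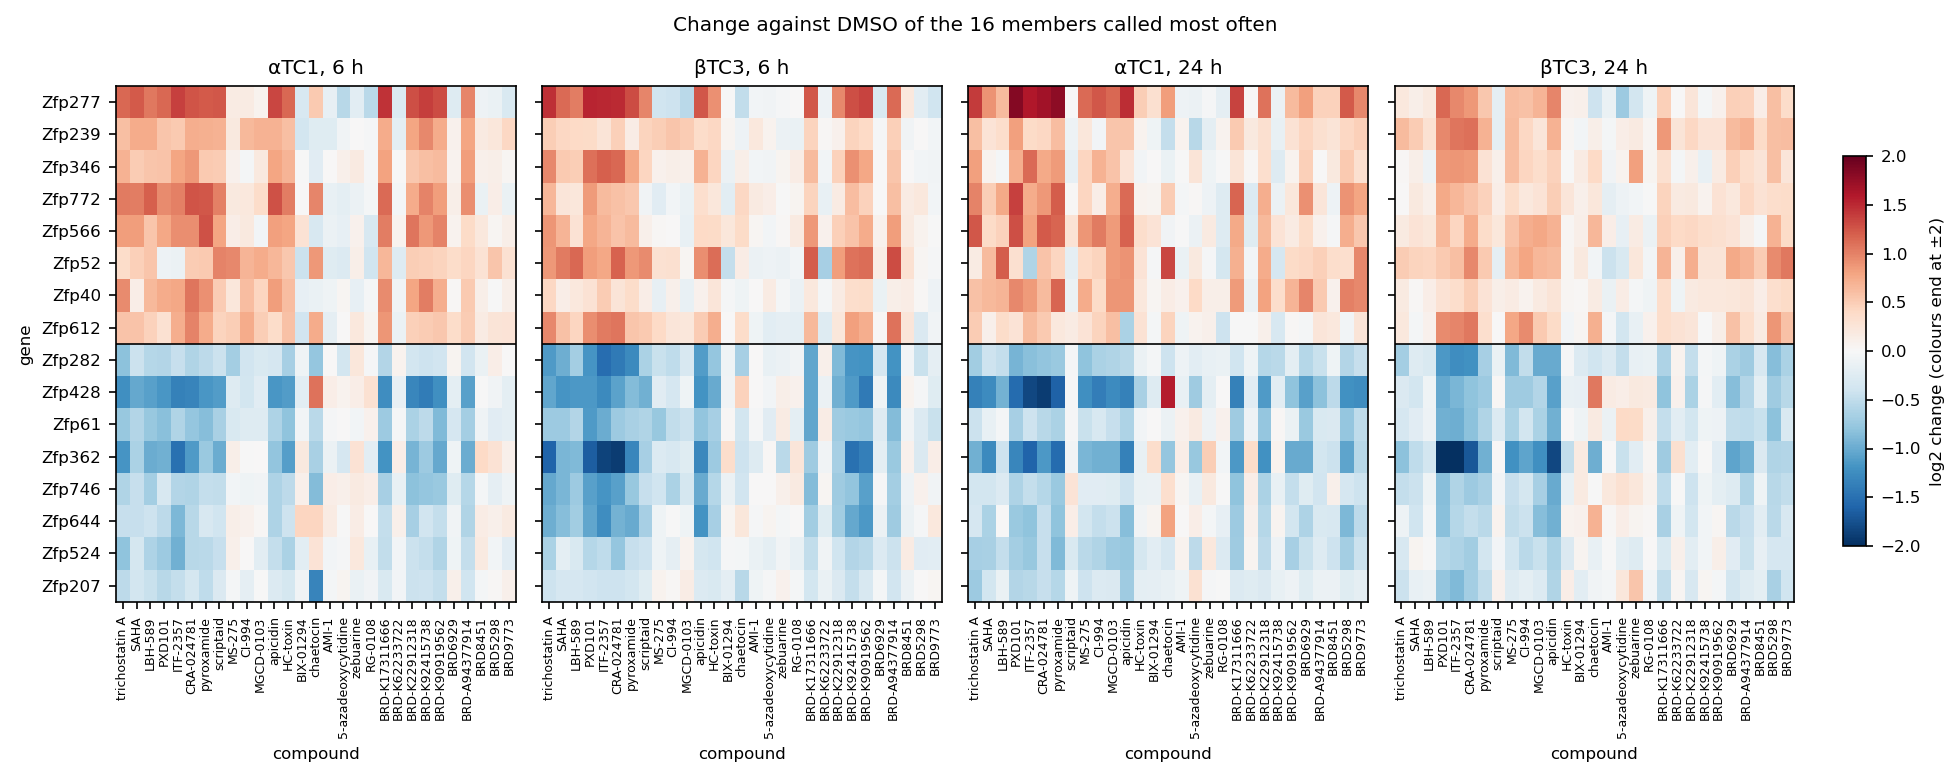
Log2 change against DMSO (colour, with its scale beside the map) of the 16 Zfp genes called most often, 8 higher and 8 lower, for each of the 29 compounds in αTC1 and βTC3 at 6 and 24 h. Hydroxamic acids fill the map at 6 h, the anilides at 24 h, and the chaetocin column has Zfp428 with the opposite sign (1.57 in αTC1 and 1.06 in βTC3 at 24 h).

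Zfp277, whose product binds the Polycomb protein Bmi1 at the Ink4a/Arf locus in mouse fibroblasts, was the member called higher most often. Under hydroxamic acids in αTC1 at 6 h its 24 arrays had a lowest, median and highest level of 5.69, 6.21 and 6.86, against 4.54, 5.02 and 5.33 on the 14 DMSO arrays. All 24 lay above every DMSO array, and the change was 1.21 ± 0.06 (2.31-fold, limma adjusted p = 9.9e-29). In βTC3 at 6 h the levels were 8.74, 9.34 and 9.75, against 7.72, 7.95 and 8.37, again with no overlap (1.30 ± 0.06, adjusted p = 2.3e-30).

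At 24 h the Zfp277 response held its size in αTC1 and was smaller in βTC3. In αTC1 the levels were 4.25, 6.16 and 6.96 on 22 hydroxamic acid arrays, against 4.24, 4.69 and 5.12 (1.23 ± 0.08), and 3 of the 22 did not lie above every DMSO array. Scriptaid gave 0.00 there. In βTC3 they were 7.73, 8.56 and 9.51, against 7.85, 8.08 and 8.43 (0.48 ± 0.04), and 13 of 24 lay above every DMSO array. The difference between the lines at 24 h, αTC1 response minus βTC3 response, was 0.75 ± 0.10.

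The anilides turned Zfp277 in βTC3 between the times. At 6 h its levels under anilides in βTC3 were 7.12, 7.43 and 7.78, with 7 of 9 arrays below every DMSO array, a fall by 0.45 ± 0.08 (adjusted p = 3.3e-06), seen with MS-275 (-0.40), CI-994 (-0.42) and MGCD-0103 (-0.54). At 24 h they were 8.48, 8.66 and 8.94, all 9 above every DMSO array (0.63 ± 0.06). In αTC1 the 6 h levels were 4.79, 5.02 and 5.33 and the change was not called (0.13 ± 0.09, adjusted p = 0.29), whereas at 24 h all 8 arrays, at 5.55, 5.85 and 6.06, lay above every DMSO array (1.18 ± 0.12).

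Zfp277 also separated compounds outside those classes. Apicidin raised it in αTC1 at 6 and 24 h (1.34 and 1.47) and in βTC3 (1.24 and 0.97). Chaetocin raised it in αTC1 (0.53 and 0.83) and lowered it in βTC3 (-0.50 and -0.41). The code-named BRD5298 gave uncalled changes of -0.13 and -0.21 at 6 h in αTC1 and βTC3 and rises of 1.23 and 0.61 at 24 h. 5-azadeoxycytidine lowered it in βTC3 at 24 h, at 7.49, 7.58 and 7.20 against a DMSO range of 7.85 to 8.43 (-0.72 ± 0.09, adjusted p = 2.1e-09).

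Zfp428, in a cluster of Zfp genes on chromosome 7, fell in both lines at both later times. In αTC1 at 6 h its levels were 4.73, 5.42 and 6.04 under hydroxamic acids, against 6.37, 6.59 and 6.91 in DMSO, with all 24 arrays below every DMSO array (-1.18 ± 0.07, adjusted p = 6.8e-25). In βTC3 at 6 h they were 3.94, 4.48 and 4.86, against 5.27, 5.57 and 5.76, again with no overlap (-1.09 ± 0.08). At 24 h the change was -1.30 ± 0.09 in αTC1 and -0.52 ± 0.08 in βTC3. Anilides lowered it at 24 h in αTC1 (-1.29 ± 0.13) and in βTC3 (-0.67 ± 0.11), and at 6 h only slightly in αTC1 (-0.28 ± 0.10), while the βTC3 value of -0.22 was not called (adjusted p = 0.12).

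Zfp362 fell in both lines too. At 6 h its levels in βTC3 were 4.72, 5.50 and 6.36 under hydroxamic acids, against 6.53, 6.85 and 7.14, with all 24 arrays below every DMSO array (-1.34 ± 0.10, adjusted p = 7.3e-19). In αTC1 at 6 h they were 4.19, 4.83 and 5.44, against 5.04, 5.80 and 6.55, and 17 of 24 lay below (-1.01 ± 0.13). Anilides lowered it by 24 h, with levels of 5.61, 5.95 and 6.39 in βTC3 and all 9 arrays below the DMSO range (-1.16 ± 0.14), but not detectably at 6 h (0.04, adjusted p = 0.9, in αTC1, and -0.28, adjusted p = 0.13, in βTC3).

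**Figure D3:**
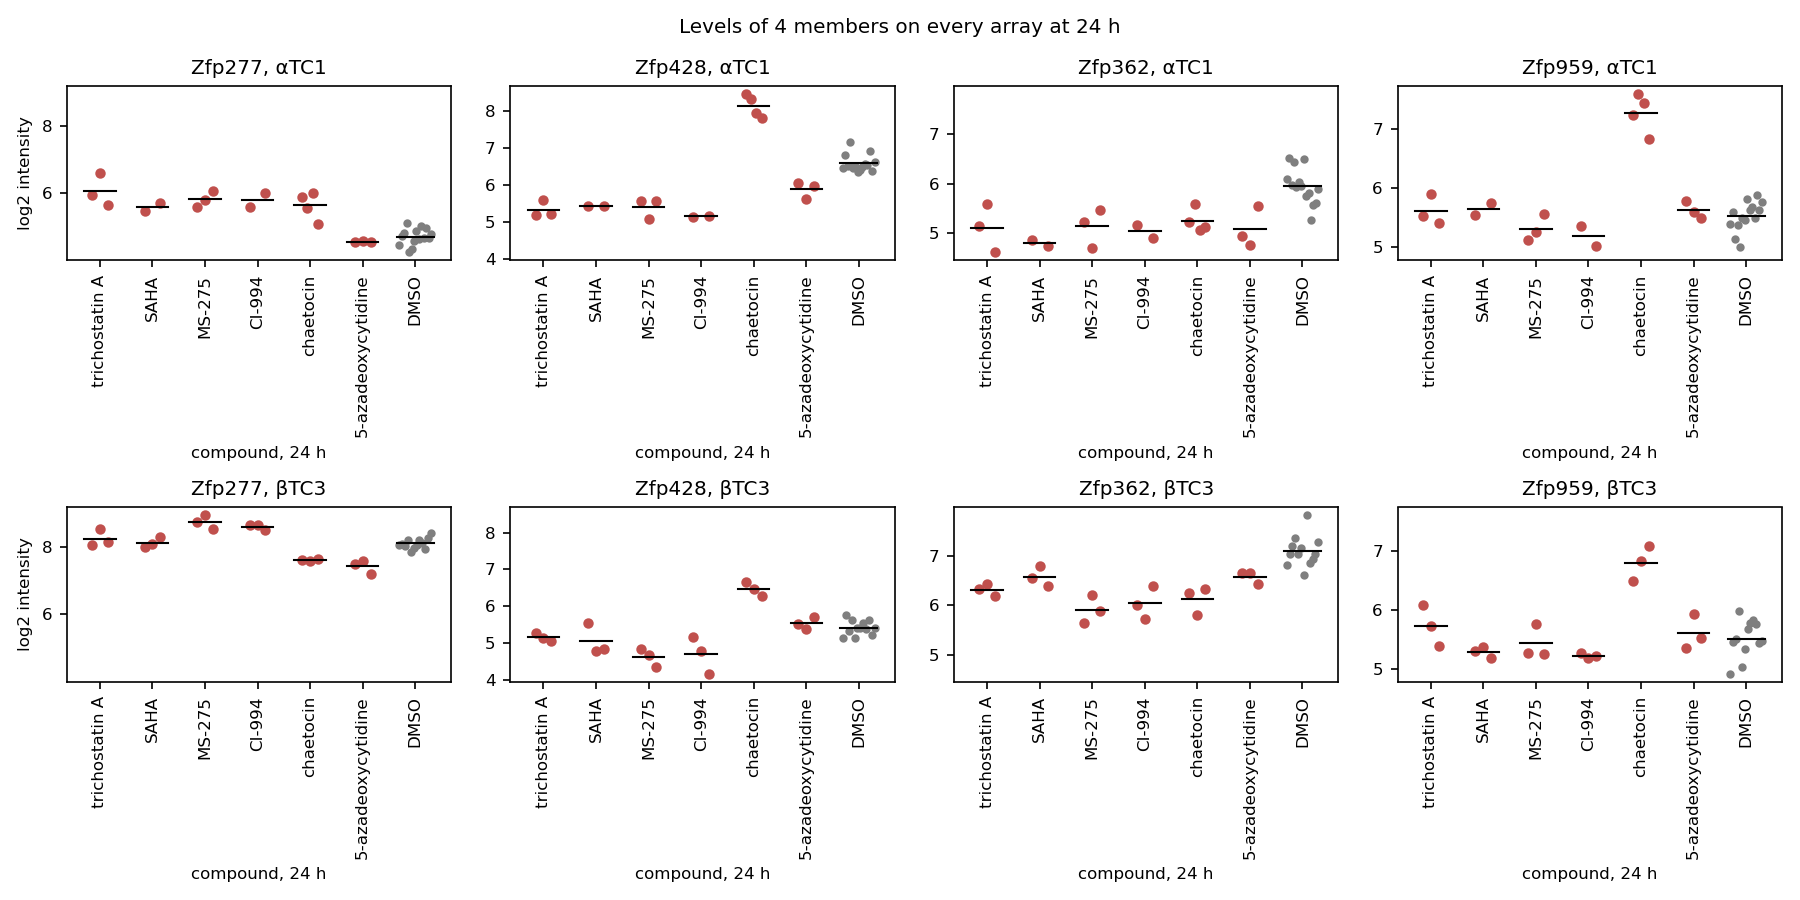
Log2 intensity of Zfp277, Zfp428, Zfp362 and Zfp959 on every array at 24 h in αTC1 and βTC3, with points for arrays and lines for means, for 6 compounds followed by DMSO. Zfp959 stands between 6.84 and 7.60 on the 4 αTC1 chaetocin arrays, above the DMSO range of 5.01 to 5.89, and Zfp428 is above DMSO under chaetocin and below it under trichostatin A in αTC1.

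Zfp282, the mouse gene for the protein known in human as HUB1, was never called higher and fell with both classes. Its levels in βTC3 at 6 h were 3.08, 3.62 and 4.31 under hydroxamic acids, against 4.11, 4.78 and 5.14 in DMSO, with 22 of 24 below every DMSO array (-1.10 ± 0.08, adjusted p = 1.2e-19). In αTC1 at 6 h it was dimmer, at 2.87, 3.34 and 3.86 against 3.32, 3.85 and 4.40 (-0.55 ± 0.08). The anilide changes were -0.45 and -0.67 in αTC1 at 6 and 24 h and -0.42 and -0.79 in βTC3. Chaetocin lowered it too, by 0.78 and 0.42 in αTC1 and 0.66 and 0.40 in βTC3.

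Other frequent falls spanned a wide range of brightness. Zfp644, whose human counterpart binds the methyltransferases G9a and GLP, had levels of 6.04, 6.43 and 6.96 in βTC3 at 6 h, against 7.19, 7.30 and 7.68 (-0.93 ± 0.07, no overlap). Zfp746, the parkin substrate PARIS, had 4.38, 4.91 and 5.58, against 5.57, 5.85 and 6.21 (-0.90 ± 0.07). Zfp61 had 3.60, 4.03 and 4.35, against 4.44, 4.79 and 5.14 (-0.77 ± 0.07, no overlap). The bright Zfp207, the spindle protein BuGZ, had 8.50, 8.70 and 8.85, against 8.92, 8.99 and 9.18, so that a small change of -0.36 ± 0.05 still left no overlap. Zfp764 (-0.89 ± 0.08) and Zfp1 (-0.86 ± 0.06) fell by similar amounts in βTC3 at 6 h.

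The frequent rises other than Zfp277 were moderate. Zfp772 in αTC1 at 6 h had levels of 3.71, 4.50 and 4.92 under hydroxamic acids, against 3.05, 3.41 and 3.85, with 23 of 24 above every DMSO array (1.09 ± 0.10). Zfp566 had there 5.31, 6.05 and 6.56, against 4.48, 5.19 and 5.70 (0.86 ± 0.08). Zfp346, a protein that binds double-stranded RNA, had 6.37, 6.76 and 7.12 in αTC1, against 5.67, 6.14 and 6.43 (0.63 ± 0.07), and 5.98, 6.58 and 7.24 in βTC3, against 5.44, 5.80 and 6.12 (0.83 ± 0.07). Zfp52 in βTC3 at 6 h had 4.21, 4.72 and 5.17, against 3.53, 3.71 and 4.14, with no overlap (0.96 ± 0.10). Zfp654 rose in both lines at 6 h (0.83 ± 0.10 and 0.70 ± 0.10), and Zfp612 by 0.76 ± 0.08 in βTC3.

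Under anilides, called rises of these genes came mostly at 24 h. Zfp566 had levels of 5.86, 6.18 and 6.65 under anilides in αTC1 at 24 h, all 8 above every DMSO array (0.92 ± 0.11), and at 6 h its change was 0.09 (adjusted p = 0.65). Zfp346 changed by 0.57 in αTC1 and 0.47 in βTC3 at 24 h, and its 6 h changes of 0.08 and 0.10 were not called. At 6 h in αTC1 the anilides instead raised Zfp52 (0.79 ± 0.14), Zfp51 (0.61), Zfp53 (0.58), Zfp612 (0.58), Zfp239 (0.52) and Zfp110 (0.50), and the first 3 are neighbours on chromosome 17. The Zfp52 levels were 4.48, 4.93 and 5.59 there, against 3.51, 4.55 and 5.10 in DMSO, so the groups overlapped, and without the batch term its change was 0.43 (adjusted p = 0.054).

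Tested directly, hydroxamic acids minus anilides, 30 members were higher and 42 lower in αTC1 at 6 h (23.8% and 20.9% of all genes) and 16 and 7 at 24 h (14.2% and 13.4%). In βTC3 the counts were 41 and 37 at 6 h (25.5% and 24.7%) and 17 and 16 at 24 h (16.2% and 16.3%). The βTC3 splits moved with the scaling. Centring gave 35 and 43 at 6 h (23.9% and 28.6% of all genes) and 24 and 10 at 24 h (21.3% and 13.9%), and quantile normalization 30 and 42 (24.4% and 24.6%) and 21 and 15 (17.5% and 16.1%). The gap for Zfp277 at 6 h was 1.08 ± 0.08 in αTC1 and 1.76 ± 0.07 in βTC3. Doses differed among these compounds, so a class difference is also a difference of doses.

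ITF-2357 and pyroxamide, both hydroxamic acids and both given at 10 µM, are the only hydroxamic acids given at the same dose, and were set against each other. Other compounds given at 10 µM, among them the nucleosides 5-azadeoxycytidine and zebuarine, were not tested against each other. At 6 h in αTC1 no member was called between them by limma (0.788% of all genes were, in either direction), and 23 had an unadjusted p under 0.05, while in βTC3 none were called higher with ITF-2357 and 2 were lower (2.85% and 2.27% of all genes). At 24 h there were 1 higher and 1 lower in αTC1 (1.36% and 0.974%) and 4 and 11 in βTC3 (7.94% and 8.38%). In βTC3 at 24 h Zfp362 was at 5.02, 5.25 and 5.22 with ITF-2357, against 6.51, 6.01 and 5.93 with pyroxamide (-1.06 ± 0.26, adjusted p = 0.0017). Zfp277 was higher with ITF-2357 there by 0.43 ± 0.11 (adjusted p = 0.0024). In αTC1 at 24 h the Zfp277 difference of -0.19 had a 95% interval from -0.60 to 0.21 and was not called (adjusted p = 0.76), which does not show that the compounds act alike. Without the batch term the βTC3 24 h count was 7 and not 15, and centring gave 5 higher and 7 lower (9.74% and 7.23% of all genes).

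At 1 h few members had moved. The hydroxamic acids raised 4 members and lowered none in αTC1 (0.356% and 0.237% of all genes), and raised 2 and lowered 1 in βTC3 (0.703% and 0.203%). Zfp772 was already higher in αTC1, at 3.04, 3.69 and 4.24 against 2.77, 3.25 and 3.51, with 15 of 24 arrays above every DMSO array (0.46 ± 0.08). Zfp46 rose in both lines, by 0.37 ± 0.09 in αTC1 and 0.29 ± 0.08 in βTC3. The others were Zfp30 (0.40 ± 0.09) and Zfp53 (0.33, adjusted p = 0.0497) in αTC1, and Zfp553 (0.26) and Zfp868 (-0.29) in βTC3, and their compound and DMSO levels overlapped. The anilides gave no call among the members at 1 h by limma (0.0169% of all genes in αTC1 and 0.0254% in βTC3), and 5 and 11 had an unadjusted p under 0.05.

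The hydroxamic acid responses of the lines were broadly alike and differed in named members. The 150 changes at 6 h, which rest on different DMSO arrays in each line, correlated with a Pearson r of 0.70 (Spearman 0.59), against 0.73 over all genes, and at 24 h with 0.70, against 0.63. For the anilides the values were 0.36 at 6 h, against 0.60 over all genes, and 0.60 at 24 h, against 0.65. Members of clusters are not independent points, and these are descriptions over genes. Of the 88 members called in αTC1 and the 87 in βTC3 with hydroxamic acids at 6 h, 56 were called in the same direction in both (21 higher and 35 lower) and 7 in opposite directions. This overlap was counted for the members only, so it cannot be set against a share over all genes.

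**Figure D4:**
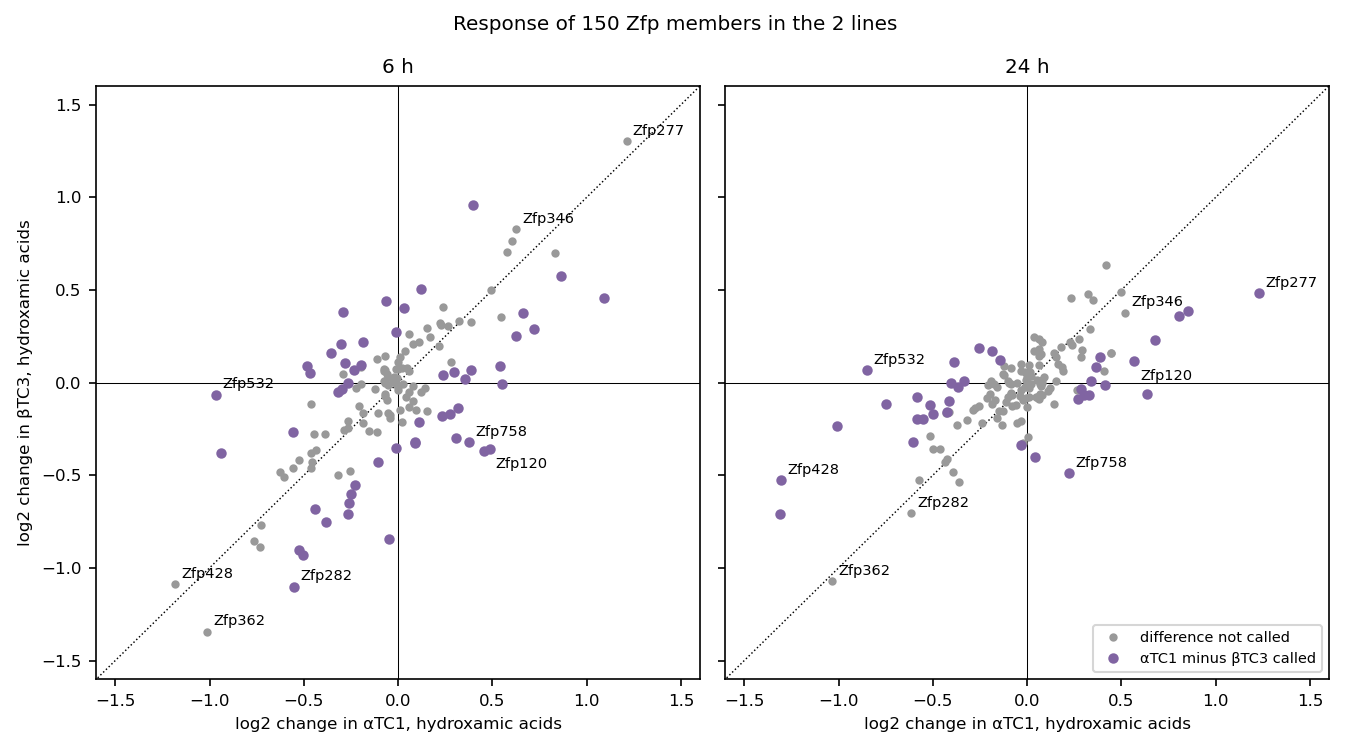
Log2 change of each of the 150 Zfp genes under hydroxamic acids at 6 h (left) and 24 h (right). αTC1 is on the x axis and βTC3 on the y axis, with purple points where the difference between the lines was called. At 6 h the Pearson r over the 150 points is 0.70, and Zfp532 lies at -0.97 in αTC1 and -0.07 in βTC3.

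The line difference itself, αTC1 response minus βTC3 response, was called for 33 members higher and 20 lower with hydroxamic acids at 6 h (16.7% and 13.3% of all genes) and for 17 and 20 at 24 h (16.6% and 17.4%). For the anilides it was 17 and 3 at 6 h (6.94% and 4.80%) and 13 and 16 at 24 h (14.1% and 14.5%). The 6 h split for hydroxamic acids was 25 higher and 28 lower after centring, where that of all genes also turned (13.9% and 17.2%), and 28 and 23 after quantile normalization (15.6% and 14.8%). The anilide 6 h counts became 13 and 5 (5.99% and 5.51%) and 13 and 6 (6.31% and 5.35%).

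Zfp532 fell in αTC1 and not detectably in βTC3, and the difference was called. Its levels in αTC1 at 6 h were 3.72, 4.01 and 4.19 under hydroxamic acids, against 4.58, 4.96 and 5.32 in DMSO, with no overlap (-0.97 ± 0.07). In βTC3 they were 3.31, 3.72 and 4.15, against 3.53, 3.77 and 3.95 (-0.07, adjusted p = 0.49), so it started there near the level to which it fell in αTC1. The difference was -0.92 ± 0.10 (limma adjusted p = 5.3e-15) at 6 h and -0.90 ± 0.11 at 24 h. Anilides at 24 h gave the same pattern, with -0.97 ± 0.12 in αTC1, 0.03 in βTC3 and a difference of -0.95 ± 0.13. Zfp37 was the reverse at 6 h, with a βTC3 fall (-0.84 ± 0.10) and an uncalled -0.05 in αTC1 (difference 0.79 ± 0.14).

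Between the lines in DMSO alone, more Zfp genes were called higher than lower in αTC1, while all genes split about evenly. In DMSO at 24 h, αTC1 minus βTC3, 69 of the 150 members were higher in αTC1 and 26 lower (46% and 17.3%, against 30.7% and 28.4% of all genes). Zfp277 had the largest difference, at 4.24, 4.69 and 5.12 in αTC1 against 7.85, 8.08 and 8.43 in βTC3, with no overlap (-3.40 ± 0.08, adjusted p = 5.6e-78). Zfp445, a KRAB protein that acts at imprinted regions, was at 6.15, 6.80 and 7.33 in αTC1, against 4.51, 5.21 and 5.66 (1.63 ± 0.12). Zfp947 was at 3.47, 4.39 and 4.63, against 2.69, 2.83 and 3.07 (1.38 ± 0.09). Zfp146 (1.39 ± 0.16), Zfp532 (1.28 ± 0.08) and Zfp428 (1.17 ± 0.10) were also higher in αTC1, and Zfp275 (-1.21 ± 0.10), Zfp362 (-1.11 ± 0.13), Zfp764 (-0.90) and Zfp740 (-0.74) lower. Line and anything else that separated the cultures cannot be told apart.

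Chromosome 7 holds 40 of the members. Of these 28 were higher in αTC1 and 2 lower (70% and 5%), against 38.6% and 18.0% of the 881 other genes of that chromosome. Of the 82 members outside chromosomes 6, 7 and 17, 33 were higher and 18 lower (40.2% and 22.0%), against 30.5% and 29.2% of other genes there. On chromosome 17, 6 of 22 members were higher and 2 lower (27.3% and 9.09%), against 28.9% and 27.6% of its other genes. On chromosome 6, 2 of 6 members were higher and 4 lower (33.3% and 66.7%), against 23.1% and 33.2% of its other genes. Time in DMSO also mattered: 23 members were higher and 2 lower at 24 h than at 1 h in αTC1 (4.83% and 2.45% of all genes), and 23 and 3 in βTC3 (6.64% and 3.87%). Zfp46 was higher at 24 h in both lines (0.53 in αTC1 and 0.47 in βTC3).

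Chaetocin, a fungal metabolite, gave more members lower than higher at 6 h and more higher than lower at 24 h. In αTC1 it gave 20 members higher and 51 lower at 6 h (15.8% and 16.9% of all genes) and 38 and 31 at 24 h (23.4% and 24.5%). In βTC3 it gave 19 and 24 at 6 h (11.7% and 11.9%) and 35 and 12 at 24 h (15.4% and 15.5%). The median change of the members in αTC1 at 6 h was -0.11, against 0.03 over all genes, and in βTC3 at 24 h 0.09, against -0.02. Of the 7 non-endocrine markers 3 rose with chaetocin in αTC1 at 6 h and 5 at 24 h (median 0.41), the endothelial Pecam1 by 1.16 ± 0.12 and 1.23 ± 0.16 and the macrophage marker Cd68 by 0.79 ± 0.26 and 1.38 ± 0.25. Their mean level on the 4 αTC1 arrays at 24 h ran from 3.56 to 4.03, against 3.07 to 3.40 in DMSO, and its part in the members' changes was not tested. In βTC3 none rose at 6 h and 1 at 24 h.

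Zfp959 had the largest rise. On the 4 αTC1 chaetocin arrays at 24 h it was 7.25, 7.60, 7.44 and 6.84, against 5.01, 5.55 and 5.89 as the lowest, median and highest in DMSO (1.72 ± 0.11, adjusted p = 2.9e-21). On the 3 βTC3 arrays it was 6.49, 6.84 and 7.09, against 4.92, 5.49 and 5.97 (1.43 ± 0.12, adjusted p = 1.1e-15). Over 1, 6 and 24 h its change was 0.23, 0.79 and 1.72 in αTC1 and 0.06, 1.14 and 1.43 in βTC3. Among deacetylase inhibitors at 6 h trichostatin A lowered it instead (-0.45 in αTC1 and -0.84 in βTC3).

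Zfp428, which deacetylase inhibitors lowered, rose with chaetocin. Its 24 h levels were 8.47, 8.32, 7.94 and 7.81 in αTC1, against 6.34, 6.51 and 7.17 in DMSO (1.57 ± 0.16), and 6.67, 6.48 and 6.29 in βTC3, against 5.13, 5.42 and 5.78 (1.06 ± 0.16). No array overlapped with DMSO in either line. Zfp213 rose in αTC1 at 24 h, at 7.41, 7.26, 7.03 and 6.38 against 5.01, 5.36 and 5.92 (1.67 ± 0.15), and Zfp869 in βTC3, at 5.64, 6.04 and 6.09 against 4.62, 4.97 and 5.19 (1.06 ± 0.14).

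The largest chaetocin falls in αTC1 at 24 h were those of Zfp932, Zfp386 and Zfp62. Zfp932 was at 4.89, 5.35, 5.83 and 5.54, against 6.67, 6.95 and 7.13 in DMSO (-1.64 ± 0.11), with no overlap. Zfp386 was at 5.23, 5.19, 6.52 and 6.82, against 7.25, 7.49 and 7.89 (-1.54 ± 0.18), and its arrays spread widely. Zfp62 overlapped with DMSO on 1 array, at 4.05, 3.63, 4.69 and 5.33 against 4.80, 5.83 and 6.16 (-1.41 ± 0.22). The 3 had already fallen at 6 h by similar amounts (-1.40, -1.44 and -1.44). Zfp35 fell at 6 h, with 5.19, 5.35 and 4.85 in αTC1 at 6 h, against 6.35, 6.60 and 6.83 (-1.54 ± 0.11), and its 24 h change was -0.40. In βTC3 at 24 h the largest falls were Zfp362 (6.24, 5.80 and 6.32, against 6.61, 7.04 and 7.82), Zfp90 (-0.49 ± 0.11) and Zfp329 (-0.46 ± 0.14). The Zfp329 value was no longer called without the batch term (-0.34, adjusted p = 0.14) or without replicate 1 (-0.47, adjusted p = 0.07) or 2 (-0.38, adjusted p = 0.077).

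BIX-01294, the other inhibitor of lysine methylation, gave 5 members higher and 2 lower in αTC1 at 6 h (2.00% and 2.38% of all genes) and 4 and 3 in βTC3 at 6 h (5.30% and 5.73%). At 24 h limma called none in either line (0.720% and 0.881% of all genes in αTC1, 0.864% and 0.339% in βTC3), and 10 members in αTC1 and 8 in βTC3 had an unadjusted p under 0.05.

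5-azadeoxycytidine, a nucleoside that traps DNA methyltransferases, gave 9 members higher and 4 lower in αTC1 at 24 h (2.57% and 4.20% of all genes) and 5 and 4 in βTC3 (3.34% and 5.05%). Zfp451, a SUMO ligase, was at 6.58, 6.94 and 6.82 in αTC1, against 5.60, 5.76 and 6.23 in DMSO (1.09 ± 0.17, adjusted p = 2.5e-06). Zfp948 rose in both lines, at 7.64, 8.06 and 7.69 in αTC1 against 6.50, 6.85 and 7.40 (0.82 ± 0.17), and at 7.23, 8.01 and 7.54 in βTC3 against 6.37, 6.82 and 7.62 (0.64 ± 0.17), where the groups overlapped. Zfp472 was at 6.60, 7.01 and 6.63 in αTC1, against 5.73, 5.96 and 6.31 (0.76 ± 0.16). Zfp428 fell in αTC1 (6.04, 5.62 and 5.98, -0.72 ± 0.17). Without replicate 2 the calls were lost for Zfp948 in αTC1 (0.73, adjusted p = 0.051) and βTC3 (0.42, adjusted p = 0.31), Zfp472 (0.65, adjusted p = 0.051) and Zfp428 (-0.60, adjusted p = 0.17), and without replicate 3 for Zfp428 (-0.74, adjusted p = 0.066).

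Zebuarine gave members only in βTC3 at 24 h, 4 higher and 1 lower (1.54% and 1.82% of all genes). These were Zfp346 (0.82 ± 0.12), Zfp948 (0.72), Zfp207 (0.56) and Zfp101 (0.47), and, lower, Zfp277 (-0.36). They were named because they are all that were called, and the Zfp346 levels were 6.90, 6.27 and 6.33. Both nucleosides were compared with the same DMSO arrays, so their values for Zfp948 and Zfp277 are not independent.

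The cyclic tetrapeptides apicidin and HC-toxin also inhibit deacetylases. Apicidin gave 21 members higher and 33 lower in αTC1 at 24 h (19.2% and 18.5% of all genes), and 16 and 18 without the array that stood apart. Centring gave 26 and 29. Zfp148 was at 4.07, 8.49 and 8.49 (-2.01 ± 0.30), and without that array its change was -0.47 (adjusted p = 0.0052). Zfp146, at 3.35, 5.07 and 3.82, changed by -1.46, and without the array by -0.84, which was not called (adjusted p = 0.061). Zfp277 rose by 1.47 ± 0.16 with the array, where it was at 5.82, 6.61 and 6.26, and by 1.52 without it. Zfp566 rose by 1.18 and by 1.07 without the array.

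In βTC3 at 24 h, where no array stood apart, apicidin gave 24 higher and 21 lower (18.7% and 17.4%). Zfp362 was at 5.10, 5.65 and 5.04 there, below every DMSO array (-1.83 ± 0.20), and Zfp277 at 8.92, 9.05 and 9.02, above them (0.97 ± 0.08). HC-toxin gave 6 and 6 in αTC1 at 24 h (10.6% and 11.3%) and none by limma in βTC3 at 24 h (1.45% and 0.754%, with 12 at an unadjusted p under 0.05), after 18 and 24 in βTC3 at 6 h (16.1% and 14.1%). Its largest αTC1 rise at 24 h was Zfp418, at 4.37, 4.21 and 4.24 against 3.32, 3.49 and 4.03 (0.77 ± 0.13).

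Members named for their known roles behaved unlike one another. Zfp148, also ZBP-89, had levels of 7.58, 7.98 and 8.38 in αTC1 at 6 h under hydroxamic acids, against 8.70, 8.91 and 9.24, with no overlap (-0.94 ± 0.05, adjusted p = 1.4e-29). In βTC3 its change was -0.38 ± 0.05 at 6 h, and at 24 h it was not called (-0.12, adjusted p = 0.06). Its close relative Zfp281, a stem cell factor, rose instead (0.49 in αTC1 and 0.50 in βTC3 at 6 h, 0.50 and 0.49 at 24 h). Zfp568, a KRAB protein that represses a placental Igf2 transcript in mouse embryos, fell with hydroxamic acids in αTC1 at 6 h (-0.36) and rose with chaetocin at 24 h (0.80 in αTC1 and 0.38 in βTC3).

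Zfp110, a partner of the p75 neurotrophin receptor, rose with anilides in αTC1 at 6 h (0.50) and fell with hydroxamic acids in βTC3 at 6 h (-0.55). The EBF partner Zfp521 rose with the anilides in αTC1 at 24 h (0.54, adjusted p = 2e-08), and its relative Zfp423 was called in neither class nor with chaetocin. Zfp106 was called only weakly, in βTC3 under hydroxamic acids (0.26, adjusted p = 0.036, at 6 h and 0.22, adjusted p = 0.047, at 24 h). Zfp42 was never called, at a level where a change could hardly be seen.

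Of the 150 members 48 lay in 7 runs of at least 4 members whose starts were at most 500000 bases apart, by RefSeq on GRCm38.p6. Members of a run can be near copies, and cross-hybridisation between them was not tested: 2 of the 48 run members were measured by a probe set whose name marks possible cross-hybridisation (_x_at). The largest run, chr17:21008941-22393909, holds 12 (Zfp160, Zfp54, Zfp51, Zfp53, Zfp52, Zfp948, Zfp820, Zfp942, Zfp943, Zfp947, Zfp944 and Zfp758). Counts in the run were unlike in the lines, which was not tested for the run as a whole. Under hydroxamic acids 7 of the 12 rose and 3 fell in αTC1 at 6 h (median 0.24, all genes 26.6% and 24.3%), and 4 rose and 6 fell in βTC3 (median -0.14, all genes 26.2% and 24.0%). Under anilides 8 rose and 1 fell in αTC1 at 6 h (median 0.39, all genes 12.7% and 13.9%), and none rose and 2 fell in βTC3 (all genes 12.9% and 16.5%). Among those rises, Zfp51 and Zfp52 were not called without the batch term. At 24 h anilides raised 3 and lowered 3 in αTC1 (all genes 21.2% and 22.5%). In βTC3 at 24 h they raised 1 and lowered 1 (all genes 22.0% and 21.7%). Chaetocin raised 6 and lowered none in βTC3 at 24 h (median 0.41, all genes 15.4% and 15.5%), and raised 5 and lowered 3 in αTC1 (all genes 23.4% and 24.5%).

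The smaller runs held 4 to 9 members each, and none was tested as a whole. Over all genes, hydroxamic acids raised 26.6% and lowered 24.3% in αTC1 at 6 h and 26.1% and 24.3% at 24 h. In βTC3 at 6 h they raised 26.2% and lowered 24.0%. Chaetocin raised 15.8% and lowered 16.9% in αTC1 at 6 h. In DMSO 30.7% of all genes were higher in αTC1 than in βTC3 and 28.4% lower. In the run at chr13:67121659-67789082 (Zfp759, Zfp455, Zfp87 and Zfp493) hydroxamic acids raised 1 member at 6 h and 2 at 24 h in αTC1 and lowered none, and in βTC3 they lowered 1 at 6 h. In the run at chr17:32765496-33394637 (Zfp871, Zfp472, Zfp81 and Zfp101) they raised 2 and lowered none at 6 h in each line. In the run at chr7:127233061-127449158 (Zfp553, Zfp771, Zfp768, Zfp764, Zfp688 and Zfp689) they raised 1 and lowered 4 in αTC1 and raised 1 and lowered 1 in βTC3 at 6 h. The run at chr7:24112320-24515682 holds 9 members, Zfp61 and Zfp428 among them, and hydroxamic acids raised none and lowered 4 in αTC1 and 4 in βTC3 at 6 h, over a range of changes in αTC1 from -1.18 to 0.14. The run at chr6:47877209-48445992 (Zfp282, Zfp212, Zfp746 and Zfp467) had 1 rise and 3 falls in αTC1 and none and 2 in βTC3 at 6 h, and chaetocin lowered all 4 in αTC1 at 6 h (median -0.80). The run at chr7:29768552-30169775, with 9 members including Zfp566, Zfp568 and Zfp146, had 4 rises and 4 falls in αTC1 at 6 h, and 8 of its 9 members were higher in αTC1 than in βTC3 in DMSO.

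**Figure D5:**
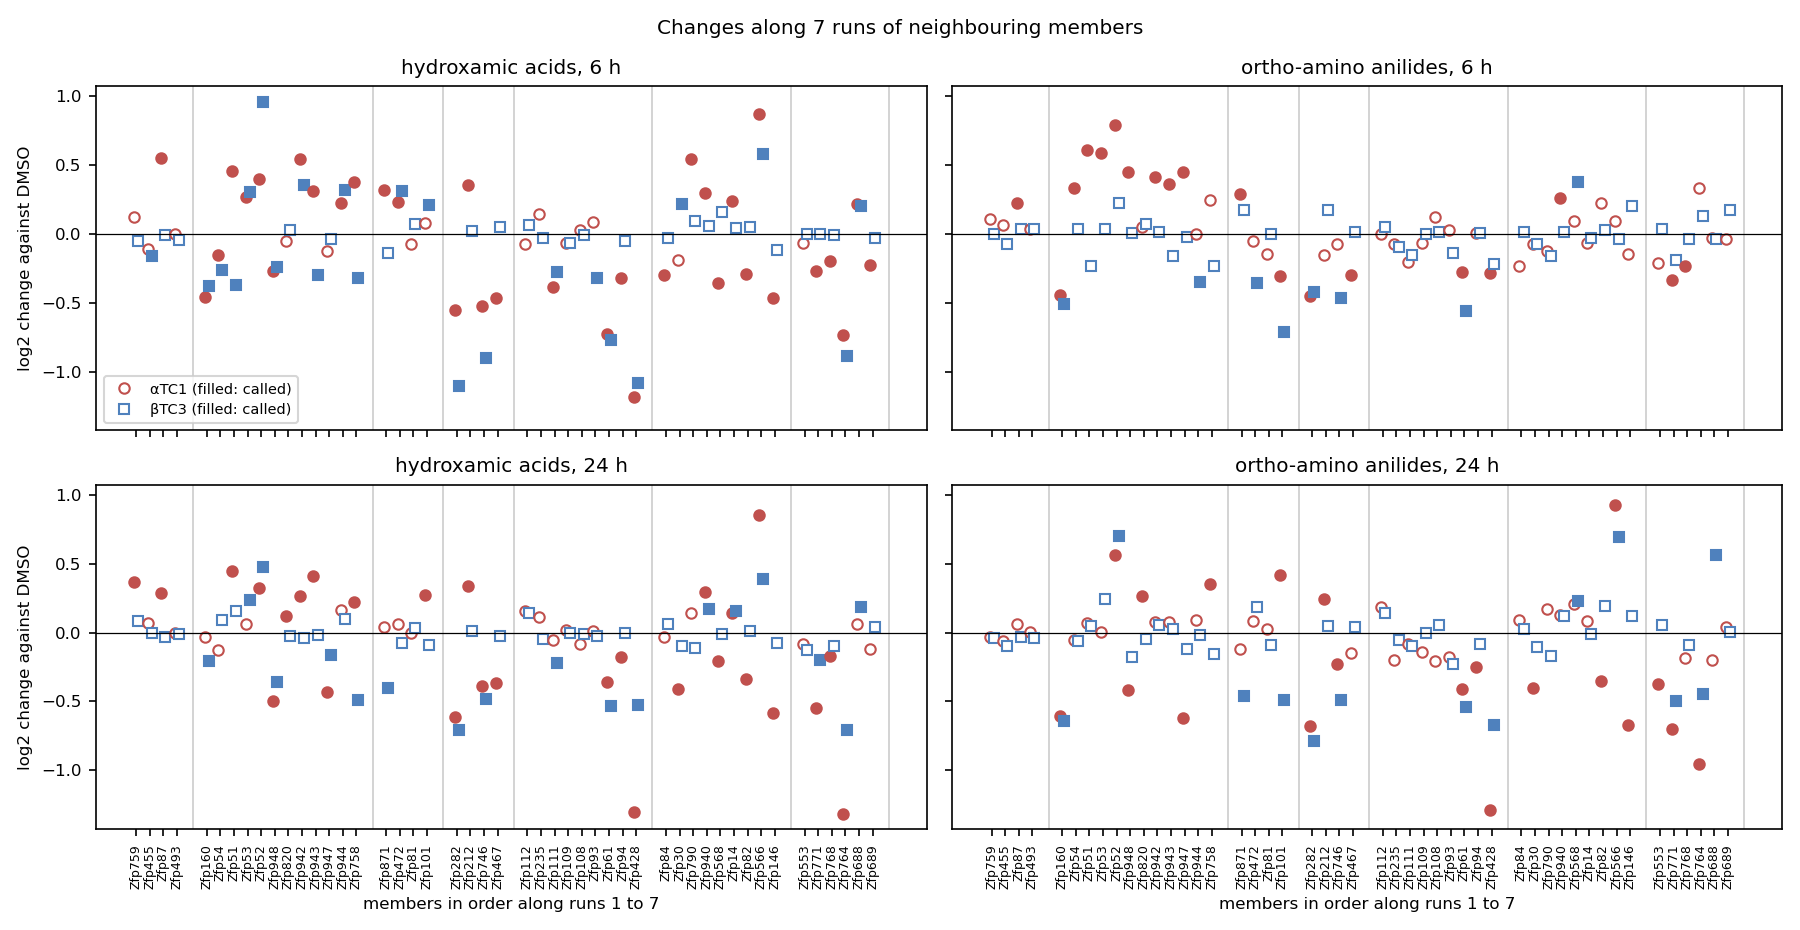
Log2 change against DMSO (y axis) of each member along the 7 runs of neighbouring Zfp genes, in genome order (x axis), under hydroxamic acids and anilides at 6 and 24 h, with circles for αTC1, squares for βTC3 and filled symbols where the gene was called. In the 12-gene run on chromosome 17 most αTC1 points lie above 0 (7 of 12 rose with hydroxamic acids at 6 h), and in the 9-gene run with Zfp428 no member rose with hydroxamic acids.

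Of the genes through which KRAB proteins act, more fell than rose with the hydroxamic acids. Of 21 measured members of that co-repressor list, 2 rose and 13 fell in αTC1 at 6 h (9.52% and 61.9%, median -0.25, against 26.6% and 24.3% of all genes), and 3 rose and 12 fell in βTC3 (14.3% and 57.1%, against 26.2% and 24.0%). At 24 h 4 rose and 12 fell in αTC1 (median -0.26) and 5 rose and 9 fell in βTC3 (median -0.08). Trim28, the scaffold, changed by -0.50 ± 0.05 in αTC1 and -0.37 ± 0.05 in βTC3, Cbx5, a heterochromatin protein, by -0.45 and -0.91, and the DNA methyltransferase Dnmt3a by -1.53 and -1.18. Hdac1, an enzyme that the compounds inhibit, rose (0.98 ± 0.04 and 0.69 ± 0.04). Setdb1 fell in αTC1 (-0.46) and was not called in βTC3 (0.09). With chaetocin at 24 h Trim28 rose (1.11 in αTC1 and 0.69 in βTC3), as did Atf7ip, the partner of Setdb1 (2.22 and 1.41). Whether these changes bear on the members was not tested.

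Other zinc finger families named by number served as a comparison at 6 h, where the hydroxamic acids raised 26.6% and lowered 24.3% of all genes in αTC1 and 26.2% and 24.0% in βTC3. Of 16 measured Zbtb genes, which join a BTB domain to zinc fingers, hydroxamic acids raised 3 and lowered 9 in αTC1 (18.8% and 56.2%) and raised 2 and lowered 10 in βTC3 (12.5% and 62.5%). Of 12 Klf genes, they raised 5 and lowered 4 in αTC1 (41.7% and 33.3%) and raised 5 and lowered 2 in βTC3 (41.7% and 16.7%). Of 11 measured genes of the TTP family and mRNA decay, zinc finger proteins of another fold and their partners, they raised 1 and lowered 7 in each line (9.09% and 63.6%). These lists are small, and their difference from the Zfp genes was not tested.

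The members' changes under hydroxamic acids were also taken within single batches, the numbers that the array titles carry, as the median over all 150 members beside the median over all genes. In αTC1 at 6 h the members' median lay below that of all genes in 4 of 6 batches, and in βTC3 in 5 of 6. At 24 h it lay below in 6 of 7 batches in each line. The members' medians ran from -0.09 to 0.00 in αTC1 and from -0.08 to 0.02 in βTC3 at 6 h, against -0.03 to 0.05 and -0.01 to 0.02 over all genes. At 6 and 24 h the anilides lay in batches 4, 5 and 6 apart from 1 array in βTC3 at 24 h, so their class values could be taken in few batches.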

How the data were processed

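For 594 arrays, RNA of αTC1 or βTC3 cells was labelled as biotin cRNA and hybridised to Affymetrix HT mouse arrays, per the labels' protocols. Per the submitters' processing notes the probe sets were summarised by RMA, with a version and settings not given in the sources used here. The authors' deposited intensities are on a linear scale (3.96 to 13635), so log2 was taken. RMA subtracts background and quantile-normalizes across arrays, which compresses small changes of dim probe sets.

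Of 22716 probe sets, 18003 had 1 gene symbol in the platform annotation, 287 had several and 4426 had none given here. Each gene was taken at its probe set with the highest mean, which left 11807 genes. The members and gene lists were chosen with earlier results of these data known. For each line and time, limma 3.58.1 in R 4.3.3 fitted all arrays with a term for each group and for batch, the 7 batch numbers in the array titles, followed by eBayes. Class values weight compounds equally. Differences between the lines and between times in DMSO came from joint fits. No array gives a counting depth, and the number of arrays limits the precision.

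Named genes were, for each class, line and time (6 and 24 h), up to 6 rises and 6 falls among called members with the same sign in all or all but 1 of the compounds, 3 each way for chaetocin, BIX-01294, 5-azadeoxycytidine, apicidin and HC-toxin at 24 h and for hydroxamic acids at 1 h, the 8 called most often each way, 5 each way for the lines in DMSO, and 8 genes of known role. The values of other named members were chosen after they were seen. Promoters are RefSeq's on GRCm38.p6. Protein sequences were not used here, so which members carry a KRAB domain is not given. As alternatives, batch was dropped, the 9 array plates entered as a random block, arrays were quantile-normalized or centred on their medians, dim genes (under the median level) were dropped, a gene's probe sets were averaged, and further fits used a single adjustment over all compounds, lines and times, each replicate number or compound left out, and a replicate block. Leaving out the array that stands apart was chosen after seeing the data. The test was checked on simulated data. Replicate numbers did not pair samples: same-numbered compound arrays correlated at 0.01 to 0.035 on average in their deviations, and arrays of a batch at 0.09 to 0.20. Columns of other samples: 0.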

Additional observations from a re-analysis of the deposited data

Results flagged for a closer look

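In the groups of 4 to 10 arrays, 144 member values were examined for an array far from the others, and 9 stood out; chance alone flags about 1 in 20 such groups. In αTC1 at 24 h, replicate 1 of chaetocin differed from the other 3 arrays in Zfp764 (6.70, others 5.95 to 6.04), Zfp612 (7.72, others 7.29 to 7.32), Zfp868 (4.07, others 5.25 to 5.36) and Zfp106 (3.44, others 4.66 to 4.83). Replicate 2 differed in Zfp110 (5.23, others 5.73 to 5.75) and replicate 4 in Zfp397 (4.39, others 3.82 to 3.90). Among the 10 DMSO arrays of βTC3 at 6 h, 1 array each differed in Zfp868 (5.52, others 5.03 to 5.29), Zfp101 (5.93, others 6.15 to 6.39) and Zfp688 (5.33, others 5.61 to 5.92).

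Several members were called in opposite directions in the lines, and the difference, αTC1 response minus βTC3 response, was called with limma. Under hydroxamic acids at 6 h Zfp120 changed by 0.48 in αTC1 and -0.36 in βTC3 (difference 0.88 ± 0.11 SE), Zfp51 by 0.45 and -0.37 (0.81 ± 0.16), Zfp758 by 0.38 and -0.32 (0.70 ± 0.12), Zfp943 by 0.31 and -0.30 (0.61 ± 0.12) and Zfp937 by 0.23 and -0.18 (0.43 ± 0.11). Of these Zfp51, Zfp758 and Zfp943 belong to the 12-gene run on chromosome 17. In the other direction were Zfp503 (-0.29 and 0.38, difference -0.63 ± 0.16) and Zfp142 (-0.30 and 0.21, -0.54 ± 0.13). At 24 h Zfp758 changed by 0.22 and -0.49 (0.70 ± 0.12) and Zfp706 by -0.19 and 0.17 (-0.35 ± 0.07). Under anilides Zfp330 changed by -0.18 in αTC1 and 0.28 in βTC3 at 6 h (-0.45 ± 0.08) and by -0.22 and 0.17 at 24 h (-0.38 ± 0.10), and Zfp101 by 0.42 and -0.49 at 24 h (0.90 ± 0.15).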

How the results depend on the processing

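Of 598 recomputed summary counts, 506 stayed within 1.5 times the reported one and 92 did not, and of 1276 recomputed counts of single compounds 199 did not, 56 of them with dim genes left out and 36 each without replicate 2 or 3. Which of higher and lower was the more frequent turned in 17 of 326 recomputed splits, in 8 of 27 comparisons. The βTC3 24 h totals turned with quantile normalization (287 higher and 335 lower, where all genes had 49.0% lower), centring (278 and 333, 52.0%), dim genes left out (193 and 233, 51.5%) and without replicate 2 (213 and 222, 47.7%) or 3 (194 and 237, 48.4%). Hydroxamic acids minus anilides turned in βTC3 at 6 h with centring, quantile normalization and without replicate 2 (31 and 34), and at 24 h with dim genes left out (12 and 13) and without replicate 1 (11 and 13). The hydroxamic acid line difference turned with centring at 6 h and without replicate 3 at 24 h (17 and 16), and ITF-2357 minus pyroxamide in βTC3 at 24 h without replicate 3 (4 and 3). The anilide splits turned in αTC1 at 6 h without replicate 1 (20 and 18), replicate 3 (17 and 15) or CI-994 (15 and 10), and in βTC3 at 24 h without replicate 1 (23 and 21). Of 1327 recomputed values of named members, 43 (in 21 of 138 results) were no longer called and none changed sign. With genes below the median level left out, fewer genes were tested: the totals of higher calls were 0, 188 and 166 in αTC1 at 1, 6 and 24 h and 4, 232 and 193 in βTC3, and of lower calls 309 and 315 in αTC1 at 6 and 24 h and 364 in βTC3 at 6 h. Hydroxamic acids then raised 18 and 16 members in αTC1 and 21 and 11 in βTC3 at 6 and 24 h, and lowered 29 and 26 in αTC1 and 29 in βTC3 at 6 h. Anilides raised 12 and 9 in αTC1 and 10 in βTC3 at 24 h, and lowered 14 and 22 in αTC1. Hydroxamic acids minus anilides gave 39 members in αTC1 and 48 in βTC3 at 6 h, ITF-2357 minus pyroxamide 2 at 6 h and 0 at 24 h in αTC1, the line differences 28 and 19 for hydroxamic acids and 19 for anilides at 24 h, DMSO αTC1 higher 27, and DMSO over time 13 in αTC1 and 15 in βTC3. With array plate as a block the 1 h counts were 13 higher and 2 lower in αTC1 and 3 higher in βTC3, and for hydroxamic acids 9 in αTC1 and 8 in βTC3. With the mean of a gene's probe sets they were 8 higher and 0 lower in αTC1 and 1 for hydroxamic acids in βTC3, and ITF-2357 minus pyroxamide gave 1 in αTC1 at 24 h. Without the batch term the 1 h counts were 1 higher and 0 lower in αTC1 and 2 higher in βTC3, DMSO over time gave 16 in αTC1, the anilide line difference at 6 h 13, and ITF-2357 minus pyroxamide 1 in αTC1 at 24 h and 1 and 7 in βTC3 at 6 and 24 h. A single adjustment over all compounds, lines and times gave 42 higher and 20 lower in αTC1 and 36 and 41 in βTC3 at 1 h. With the replicate block, ITF-2357 minus pyroxamide gave 1 in αTC1 at 24 h and 1 and 7 in βTC3 at 6 and 24 h, and the block changed no other count by over 1.5 times.

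Leaving out 1 replicate number at a time gave 0 to 3 higher and 0 to 1 lower at 1 h and 230 to 320 higher at 24 h in αTC1, and 0 to 4 higher and 0 to 7 lower at 1 h and 194 to 272 higher at 24 h in βTC3. Hydroxamic acids at 1 h gave 0 to 3 in αTC1 and 0 to 2 in βTC3, and with 1 compound left out 3 to 7 and 0 to 4. Anilides in αTC1 gave 13 to 20 higher and 15 to 18 lower at 6 h (10 to 23 with 1 compound left out) and 6 to 16 higher at 24 h, and in βTC3 8 to 13 higher at 6 h. Hydroxamic acids minus anilides gave 12 to 22 in αTC1 at 24 h. ITF-2357 minus pyroxamide gave 0 to 1 and 0 to 3 in αTC1 and 0 to 2 and 4 to 7 in βTC3 at 6 and 24 h, and the anilide line difference 10 to 18 and 19 to 27. Without the batch term the anilide rises of Zfp52 in αTC1 (0.27 at 24 h), Zfp51 in αTC1 at 6 h (0.38) and Zfp503 and Zfp703 in βTC3 at 6 h (0.17 and 0.27) were no longer called. The cause was not tested. Signal over background limits the dimmest members.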
